A study of Sus scrofa with 4 samples.

Results

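POU5F1, NANOG, SOX2, UTF1 and SALL4, the core pluripotency factors, were followed through the reprogramming of porcine skin fibroblasts. They are 5 of the 25880 genes in the count table and were taken by name, with earlier results of these data known. NANOG was named in the table's annotation by its identifier. The other 4 members carried no symbol there and were matched by position to RefSeq genes of the same assembly, Sscrofa11.1. For SALL4, the identifier that pairs with this symbol in the name table matched no row, and the model at its position was used.

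The cells came from ear skin of 1 post-neonatal pig, named N01F. Fibroblasts (1 library, passage 1) were the untreated starting cells. Induced neural stem cell-like cells (iNSLCs; 1 library, passage 1) were the colonies that grew after transfection with the EP-B set of episomal vectors in NSM, a medium designed for naive-state cells. Induced pluripotent stem cells (iPSCs; 2 libraries, clones 1 and 2, passage 3) were colonies picked after such cells were moved into ESM, an embryonic stem cell medium, to which IWP2, a blocker of WNT secretion, TGF-β1 and activin A were added. The EP-B vectors carry human OCT4 (the product of POU5F1), SOX2 and NANOG, that is the counterparts of 3 of the members, besides KLF4, L-MYC, LIN28, KLF2, GLIS1, KDM4D and a dominant-negative mouse p53. They carry neither UTF1 nor SALL4. Vector loss was examined in the study after more passages than these libraries had, and the method used mouse feeder cells. Reads of human vector RNA or of mouse RNA that align to a porcine gene would have been counted there, and how much they contributed was not tested. In the porcine iPSC clones, the study detected RNA of OCT4, NANOG and SOX2 with primers for the porcine sequences. For marmoset iNSLCs it reported OCT4 and NANOG RNA from the vectors but not from the cells' own genes, and SOX2 RNA from the cells' own gene.

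OCT4 and SOX2 are DNA-binding proteins that sit side by side on enhancers of pluripotent cells and switch on each other's genes, and NANOG, a homeodomain protein, acts with them to stabilise this state. SALL4, a zinc-finger protein, binds the same network and recruits the NuRD chromatin remodelling complex, and UTF1 is a chromatin-associated protein and a classic target of OCT4 and SOX2. SOX2 is also a factor of neural stem cells, and OCT4 and SALL4 are used in germ cells too, so no member alone marks pluripotency.

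Total counts were between 21640374 and 62421521 per library. A floor was set at 3 counts, or 0.0648 CPM (counts relative to library size, scaled by TMM) in fibroblasts and 0.105 CPM in iNSLCs. By its exact interval, a gene with 0 fibroblast counts could have lain at up to 0.0797 CPM. Intervals of single libraries are 95% exact intervals, cover counting error only, and say nothing of the spread between cultures. All 12 fibroblast markers, such as COL1A1 and DCN, had counts in each library, with FAP at 2 counts in iPSC clone 2. Their summed level in iNSLCs was 38.8% of that in fibroblasts, and it was 0.651% and 0.674% in the clones. COL1A1, COL1A2 and COL3A1 made up 94.0% of the iNSLC sum. Singly, 11 markers were lower in iNSLCs, from S100A4 at 1.55% of its fibroblast level to FAP at 87.5%, and POSTN was 17.8-fold higher. In bulk RNA, fewer cells that express a gene and less RNA per cell cannot be told apart, and the iNSLC values below are averages over a culture that held this fibroblast-marker signal. Its part in the members' levels was not tested.

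POU5F1 (ENSSSCG00000001393, chromosome 7, 23564908 to 23570600, minus strand) was counted over 5 exons with 1083 bases in all, a multiple of 3 that leaves little room for untranslated regions. It had 0 counts in fibroblasts, 1160 in iNSLCs, 6978 in iPSC clone 1 and 12573 in iPSC clone 2. After scaling these were 0, 40.5, 295 and 275 CPM. The gene was thus silent at this depth in fibroblasts, measured at a middle level in iNSLCs, and high and nearly equal in both clones.

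SOX2 (ENSSSCG00000037485, chromosome 13, 119663183 to 119669539, plus strand) was counted over a model with 1 exon of 6357 bases, which begins 5293 bases before the RefSeq entry of 960 bases. Reads from the stretch in front of that entry were therefore counted as SOX2. It had 13, 3837, 5003 and 11636 counts in fibroblasts, iNSLCs, clone 1 and clone 2, which corresponded to 0.281, 134, 211 and 254 CPM. Unlike POU5F1, it was read in fibroblasts, with an interval of 0.149 to 0.480 CPM, and the iNSLC library already lay near the clones.

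NANOG (ENSSSCG00000040403, chromosome 5, 62932575 to 62939035, plus strand) was counted over 4 exons and 915 bases, also a multiple of 3. It had 0 counts in fibroblasts, 6 in iNSLCs, 1241 in clone 1 and 1872 in clone 2, or 0, 0.209, 52.4 and 40.9 CPM. The iNSLC interval ran from 0.0768 to 0.456 CPM, so that only the clones held NANOG RNA at more than a trace. Protein was not measured here, and the study reported its porcine iPSCs as negative for NANOG by antibody staining. RefSeq places another gene named NANOG on chromosome 1 (169064134 to 169065292, 1159 bases). It lies within THSD4, and none of its bases were part of a THSD4 exon counted in the table. Reads that fit both NANOG genes equally well may have been dropped, which would have lowered the value at chromosome 5.

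SALL4 (ENSSSCG00000007479, chromosome 17, 53079636 to 53103023, minus strand) was counted over 4 exons and 7829 bases. It had 6, 6873, 7893 and 18598 counts in fibroblasts, iNSLCs, clone 1 and clone 2, or 0.130, 240, 333 and 406 CPM. Like SOX2, it was already near its iPSC level in iNSLCs. A model of 88 bases on the opposite strand inside the gene had at most 9 counts in any library.

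UTF1 (ENSSSCG00000010771, chromosome 14, 141192116 to 141193299, plus strand) was counted over 2 exons and 1032 bases. Its counts were 1, 95, 660 and 777, or 0.0216, 3.32, 27.9 and 17.0 CPM. It was close to silent in fibroblasts, and of the 5 members it was the one in which the clones lay farthest apart in proportion.

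**Figure D1:**
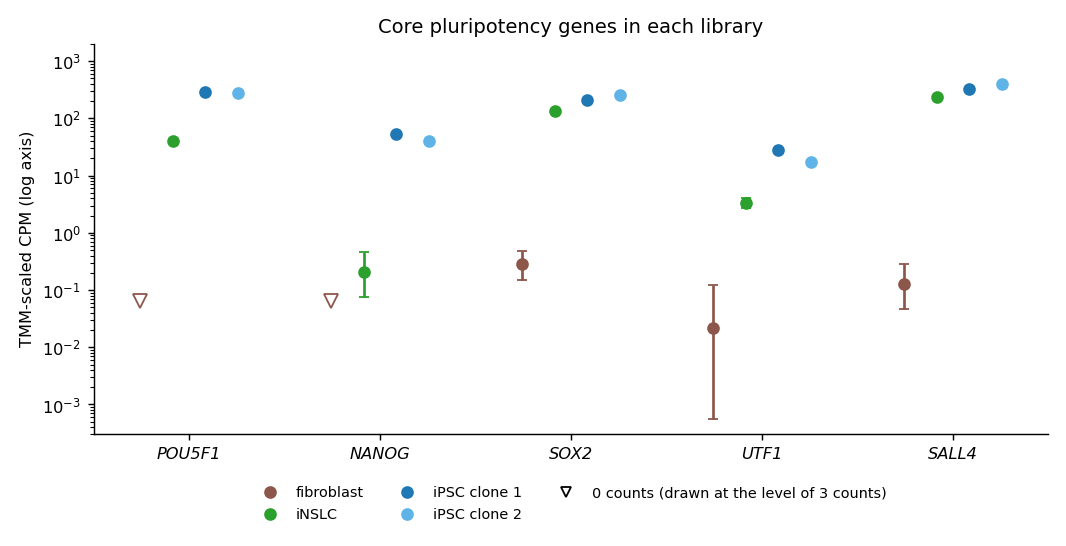
TMM-scaled CPM of the 5 members in each library on a log axis; each point is 1 library, bars are 95% exact Poisson intervals of its count, and open triangles mark 0 counts at the level of 3 counts. All 5 members were lowest in fibroblasts and higher in both clones than in iNSLCs, with NANOG near the bottom of the scale in iNSLCs (0.209 CPM).

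Levels of different genes can be compared only per length. On the scale of CPM per kilobase of the counted exons, POU5F1 led in iPSCs with 263 ± 13.0 (SD, n = 2). NANOG followed with 51.0 ± 8.87, SALL4 with 47.2 ± 6.61, SOX2 with 36.6 ± 4.79 and UTF1 with 21.7 ± 7.46. The clones' ranges of NANOG (44.7 to 57.3) and SALL4 (42.6 to 51.9) overlapped, and NANOG was above SALL4 in clone 1 and below it in clone 2. The other neighbours in this order did not overlap between clones. In iNSLCs, with the lengths as deposited, the order was different, with POU5F1 at 37.4, SALL4 at 30.6, SOX2 at 21.1, UTF1 at 3.21 and NANOG at 0.229 CPM per kilobase, and no neighbouring intervals overlapped.

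This order rests on gene models that differ from RefSeq for every member. With introns, the models of POU5F1, NANOG and UTF1 spanned 5693, 6461 and 1184 bases, against 6038, 7445 and 3240 in RefSeq. That of SALL4 spanned 23388 bases against 20414. Another length was tried for SOX2 only, so how far the places of the other members depend on their models was not tested. The place of SOX2 depends on its gene model. If all of its reads had come from the 960 bases of the RefSeq entry, it would lie at 242 CPM per kilobase in iPSCs and move from position 4 to position 2 by the mean of the clones (2 in clone 1 and 1 in clone 2). In iNSLCs it would lie at 139 CPM per kilobase and move from position 3 to position 1, above POU5F1. With the lengths as deposited, POU5F1 was 1.77 times SOX2 per kilobase in iNSLCs and 8.19 and 6.34 times in clones 1 and 2. With the RefSeq length of SOX2 these ratios were 0.268, 1.24 and 0.958, so which of both genes was higher cannot be read from these counts. That change of the ratio between libraries does not depend on the length used.

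Ranked per kilobase among the genes with a symbol and a count, POU5F1 was at position 1039 of 14912 in iNSLCs. It was at position 122 of 14679 in clone 1 and 123 of 15014 in clone 2, within the top 0.831% and 0.819%. NANOG rose from position 12888 in iNSLCs to 759 and 1024 in the clones. SALL4 went from position 1344 to 1127 and 860, SOX2 from 2139 to 1511 and 1185, and UTF1 from 8705 to 1894 and 3071. In fibroblasts, SOX2, UTF1 and SALL4 were at position 12910 or lower of 14077. POU5F1 made up 40.4% of the summed per-kilobase level of the 5 members in iNSLCs and 63.0% and 62.4% in the clones, whereas SALL4 went from 33.1% to 9.85% and 12.8%. With the RefSeq length of SOX2, the share of POU5F1 was 17.7%, 44.0% and 40.2% and that of SALL4 14.5%, 6.88% and 8.22%.

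The comparison of iPSCs with fibroblasts asked how far the end of reprogramming lay from its start. All 5 members rose (edgeR quasi-likelihood test, Benjamini-Hochberg adjustment over 15739 genes), beside 29.6% of all genes tested that were called higher and 27.5% called lower in iPSCs. Of these calls, 51.9% were higher, and the share was 72.8% with total counts and 68.0% with reference gene scaling in place of TMM. Only the clones leave a residual degree of freedom, so that the p-values take their spread, which may be technical, for that of the libraries without a replicate. POU5F1 in iPSCs lay 4395-fold above the level of 3 fibroblast counts (edgeR adjusted p = 0.000159). The lower ends of its counting intervals were 3697 in clone 1 and 3449 in clone 2. NANOG lay 720.2-fold above on the same basis (edgeR adjusted p = 0.000243), with lower ends of 657 and 513. SALL4 was 2855-fold and SOX2 829-fold higher (edgeR adjusted p = 0.000170 for each). UTF1, with 1 fibroblast count, was 1290.4-fold higher in clone 1 (interval 231 to 51045) and 786-fold in clone 2 (141 to 31100; edgeR adjusted p = 0.000738 for the clones together).

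The comparison of iPSCs with iNSLCs asked which members changed at the last step, where medium and passage changed with the cell state. Of the 5 members, 4 rose, beside 14.1% of all genes called higher and as many called lower. Of these calls, 50.0% were higher, and 37.0% with reference gene scaling. NANOG was 223-fold higher (edgeR adjusted p = 0.00175), with a ratio to iNSLCs of 250.2 in clone 1 (interval 115 to 683) and 195 in clone 2 (89.6 to 533). POU5F1 was 7.03-fold higher (edgeR adjusted p = 0.00177) and its ratios of 7.28 and 6.79 in the clones were close to each other. UTF1 was 6.76-fold higher (edgeR adjusted p = 0.0144), with 8.41 in clone 1 and 5.12 in clone 2. SOX2 was 1.74-fold higher (edgeR adjusted p = 0.0291), with 1.58 and 1.90 in the clones, the smallest of the changes that passed. SALL4, at 1.54-fold, did not pass with edgeR (adjusted p = 0.0545). It passed with DESeq2, which called 12.5% of all genes higher (adjusted p = 0.0137, log2 ratio 0.64 with a 95% interval of 0.22 to 1.05), and over 7 alternative settings its adjusted p ran from 0.0137 to 0.108, with 3 that passed. Both clones were above iNSLCs in SALL4, with ratios of 1.39 (interval 1.35 to 1.44) and 1.69 (1.65 to 1.74).

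Turned around, these ratios give the part of the iPSC level that was present in iNSLCs. SALL4 stood at 72.0% of clone 1 and 59.0% of clone 2. SOX2 stood at 63.4% and 52.7%. UTF1 stood at 11.9% and 19.5% and POU5F1 at 13.7% and 14.7%, and the counting intervals of these genes overlapped against both clones. NANOG stood at 0.40% (interval 0.146 to 0.872) and 0.512% (0.188 to 1.12). Against the clone mean, the part reached by SALL4 was 144-fold that of NANOG, and that of POU5F1 was 31.7-fold that of NANOG. The members thus lay at 3 levels within the same library, with no overlap of the intervals between levels. SALL4 and SOX2, counted here as the same level, differed by 1.13 times, and their intervals did not overlap either. SOX2, POU5F1 and NANOG, which the vectors carry, lay in the upper, the middle and the lower level, and SALL4 and UTF1, which they do not carry, lay in the upper and the middle. The part of vector reads in these levels was not tested.

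**Figure D2:**
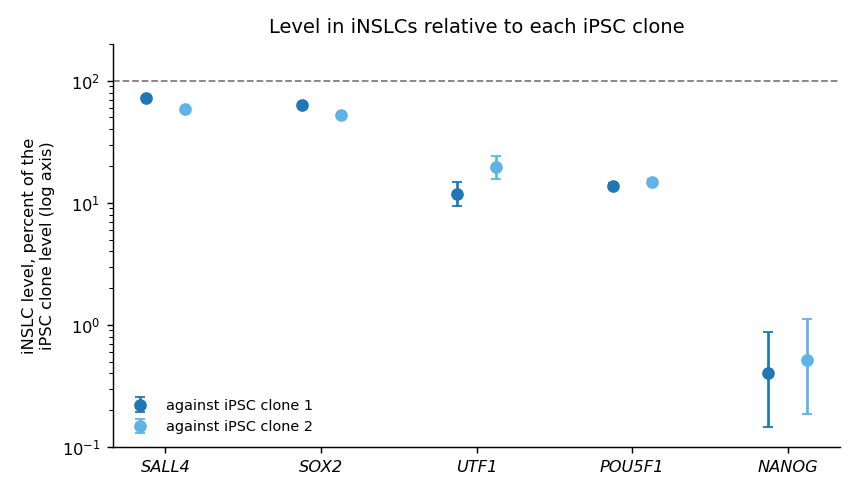
Level of each member in iNSLCs as a percentage of its level in iPSC clone 1 (dark) and clone 2 (light), on a log axis; bars are 95% exact intervals of the ratio of counts and the dashed line marks equal levels. SALL4 and SOX2 lay between 52.7% and 72.0%, UTF1 and POU5F1 between 11.9% and 19.5%, and NANOG at 0.40% and 0.512%.

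For iNSLCs against fibroblasts there was 1 library on each side and no p-value was computed. All 5 members were higher in iNSLCs by an interval that left out 1, which 43.8% of the genes did. SALL4 was 1851-fold higher (interval 850.03 to 5046) and SOX2 477-fold (279 to 897). POU5F1, with 0 fibroblast counts, lay 625-fold above the level of 3 fibroblast counts, and the lower end of its counting interval was 507. UTF1 was 154-fold higher on 1 fibroblast count (interval 26.9 to 6127). NANOG, with 6 counts against 0, lay 3.23-fold above the level of 3 fibroblast counts, and the lower end of its counting interval was 1.90. The other 4 members were at least 4-fold higher also with fibroblast counts raised to 3, and 17.8% of all genes were that far apart.

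Between the clones, which came from the same animal and the same medium, the members did not all go the same way. POU5F1 was 1.07-fold higher in clone 1 (interval 1.04 to 1.10), NANOG 1.28-fold (1.19 to 1.38) and UTF1 1.64-fold (1.48 to 1.82). SOX2 and SALL4 were higher in clone 2, 1.20-fold (interval 1.16 to 1.24) and 1.22-fold (1.19 to 1.25). All 5 counting intervals left out 1, as did those of 55.8% of the 8771 genes at 10 CPM or more in both clones, so this count says little about the members. With reference gene scaling it was 4 of 5, and POU5F1 was the member lost. By size, only UTF1 was at least 1.5-fold apart, which 3.51% of those genes were, and 1.97% were as far apart as UTF1 or farther. For POU5F1, NANOG, SOX2 and SALL4 the same shares were 57.5%, 11.4%, 19.6% and 17.4%. The difference between clones has no replicate and was not tested.

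Genes around the members were examined within 200 kb of each start site, a window chosen with the data at hand. The windows held 68 further models, of which 35 reached 1 CPM in any library. Against iNSLCs, 4 of these rose and 4 fell in iPSCs, and against fibroblasts 8 rose and 12 fell (edgeR). Over all genes tested, 14.1% rose and 14.1% fell against iNSLCs, and 29.6% rose and 27.5% fell against fibroblasts. The counts were not tested against these shares and are not read as a trait of the windows. The 6 further models in the SOX2 window did not reach 1 CPM in any library. Some neighbours are named here after their values were seen. GDF3, which encodes a TGF-β family ligand of early embryos, starts at -90.9 kb from the NANOG start. Its levels were 0, 0.628, 12.0 and 6.16 CPM in fibroblasts, iNSLCs, clone 1 and clone 2 (edgeR adjusted p = 0.0178 against iNSLCs). It thus shared with NANOG the rise at the last step and the higher level in clone 1. SLC2A3, a glucose transporter gene 109 kb after the NANOG start, had the step elsewhere, with 30.4 CPM in fibroblasts, 1087 in iNSLCs, and 1132 and 1607 in the clones. MFAP5, at -190.3 kb from the NANOG start, fell from 28.2 CPM in iNSLCs to 0.676 and 0.656 CPM (edgeR adjusted p = 0.00131). TCF19 and CCHCR1, which start 12.5 and 12.3 kb beyond POU5F1, were not called against iNSLCs and lay at 7.78 and 12.7 CPM there. ADAM8, 40.2 kb beyond UTF1, rose from 1.54 CPM in iNSLCs to 33.1 and 21.0 CPM (edgeR adjusted p = 0.00595). ATP9A, which starts 30.4 kb beyond the SALL4 start, fell from 173 to 70.3 and 88.3 CPM (edgeR adjusted p = 0.0143). NFATC2, 195.6 kb beyond it, rose from 0.977 CPM to 9.12 and 11.2 CPM (edgeR adjusted p = 0.00509), so that near SALL4, too, neighbours went both ways.

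**Figure D3:**
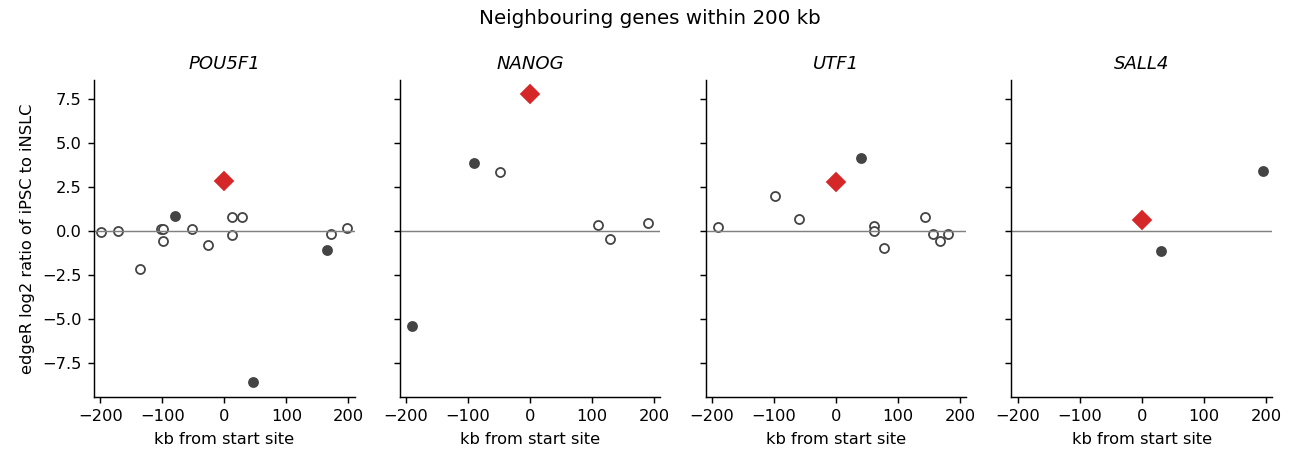
edgeR log2 ratio of iPSCs to iNSLCs of genes at 1 CPM or more in any library against the distance of their start site from that of POU5F1, NANOG, UTF1 or SALL4 (red diamonds), in kb along the direction of transcription; filled points passed the test. Of 35 neighbours, 4 rose and 4 fell, beside 14.1% of all genes tested each way, with GDF3, left of NANOG, at 3.84. The lowest point beside POU5F1 is CDSN, which had 0 counts in both clones, so its fitted ratio of -8.62 is not a measured size.

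The genes whose pattern over the 4 libraries was most like that of a member were ranked by the root mean square difference of centred log2(CPM + 0.5) among 11355 other genes at 5 CPM or more. With 4 libraries, 2 of them clones of the same state, this is a description. Of the 5 members, SALL4 had the closest partner: LIN28A, whose protein blocks the maturation of let-7, at a difference of 0.0567. LIN28A was at 0.0864, 202, 285 and 349 CPM in fibroblasts, iNSLCs, clone 1 and clone 2. The ratio of SALL4 to LIN28A in CPM was 1.19, 1.17 and 1.16 in iNSLCs and the clones. LIN28 is carried by the vectors and SALL4 is not. PODXL, a surface sialomucin, followed at 0.253, and SOX2 was the fifth at 0.453.

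The list of NANOG was led by CLIC6 (difference 0.218), LEFTY2 (0.234), ERAS (0.361) and GATA4 (0.426). LEFTY2, an inhibitor of NODAL, was at 0.0432, 0, 42.3 and 31.5 CPM in the order above, so that it too had its step after the iNSLC stage. The nearest member to NANOG was UTF1, at a difference of 1.43 and rank 85, and SALL4 was the farthest, at 2.95. POU5F1 was nearest to DNMT3B, a de novo DNA methyltransferase, at 0.416, which went from 3.33 CPM in fibroblasts to 328 in iNSLCs and 1303 and 1209 in the clones. KRT18 and KRT8, keratins of simple epithelia, were next at 0.419 and 0.435. The nearest member to POU5F1 was SOX2, at 0.838 and rank 16, whereas UTF1 was at 1.60 and rank 134. SOX2 was nearest to KCNJ3 (0.218), NUP210 (0.253) and ZIC2 (0.264), and SALL4 was the nearest member, at rank 13. UTF1 was nearest to CLDN3, a tight-junction claudin (0.175), and to WIPF3 (0.187), and all of the other members differed from it by 1.43 or more. With a pseudocount of 1 CPM, only 1 of the 5 genes nearest to UTF1 (WIPF3) and 3 of those nearest to POU5F1 (KRT18 and KRT8 dropped out) stayed among the 5 nearest, against 4 for SOX2 and all 5 for NANOG and SALL4.

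**Figure D4:**
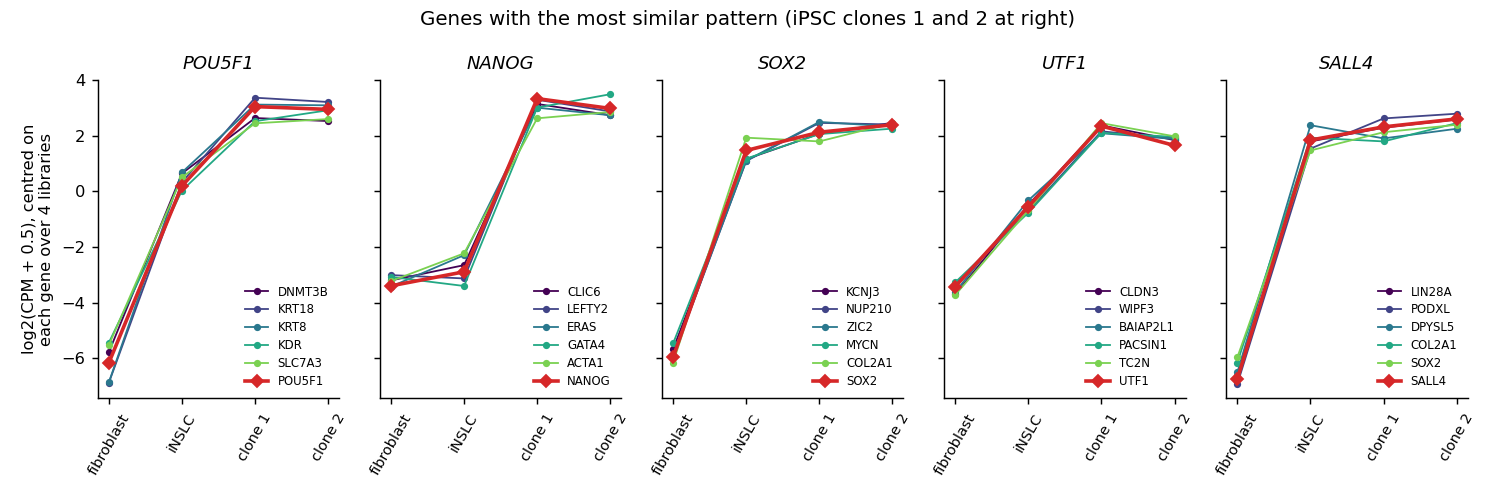
Centred log2(CPM + 0.5) of each member (red) and of the 5 genes with the most similar pattern, over the 4 libraries. The panels show the step before iNSLCs for SOX2 and SALL4 and the step after iNSLCs for NANOG. POU5F1 and UTF1 rose on both sides of iNSLCs, and on this scale the rise of POU5F1 was larger before iNSLCs than after. The joined clones are replicates with no order.

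Of 25 tested partners and regulators of the core network, 20 rose and 4 fell against fibroblasts, and 11 rose and 4 fell against iNSLCs. For this and each later list, the shares over all genes tested are the measure. These were 29.6% higher and 27.5% lower against fibroblasts, and 14.1% each way against iNSLCs. No list was tested against them. Their median log2 ratio to iNSLCs was 0.65, where the median of all genes tested was -0.00. PRDM14, a repressor of differentiation in pluripotent cells, was at 0, 3.87, 68.1 and 65.3 CPM in fibroblasts, iNSLCs and the clones, and rose 17.2-fold against iNSLCs. FOXD3 rose 8.75-fold and TDGF1, a NODAL co-receptor, 6.87-fold. The 4 that fell against iNSLCs, named after their values were seen, were DPPA5, ESRRB, NR5A2 and STAT3 (3 fell with DESeq2). ESRRB, a nuclear receptor of mouse stem cells, was at 30.0 CPM in iNSLCs and 9.75 and 4.06 CPM in the clones. KLF5, a factor of the same cells, rose 4.13-fold, and OTX2, a homeodomain factor of the epiblast, rose 4.96-fold. ZFP42, with 29.8 and 88.8 CPM in the clones and 11.9 in iNSLCs, did not pass (edgeR adjusted p = 0.0763).

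Among 10 tested textbook targets of OCT4 and SOX2, 8 rose and 1 fell against fibroblasts, and 5 rose and none fell against iNSLCs. ZFP42, TDGF1 and LIN28A are also on the list of partners and regulators above. The median log2 ratio to iNSLCs was 1.89. LEFTY2, with 0 counts in iNSLCs, lay 352-fold above the level of 3 counts there in iPSCs, and NODAL was 35.0-fold higher in iPSCs than in iNSLCs. The medium changed at this step too, with activin A and TGF-β1 added, and its part in the ratios of this list was not tested. SPP1, which encodes osteopontin, rose 6.05-fold against iNSLCs and was at 26.6 CPM in fibroblasts already. FGF4, whose enhancer is the classic joint site of OCT4 and SOX2, was at 0, 1.12, 2.66 and 0.830 CPM and was not called against iNSLCs (edgeR adjusted p = 0.630).

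Each of the 12 tested NuRD subunits, the partners of SALL4, was at 17.2 CPM or more in every library. Of these, 8 rose and 3 fell against fibroblasts, and 3 rose and 1 fell against iNSLCs, with a median log2 ratio to iNSLCs of 0.22. Over all genes tested, 14.1% rose and 14.1% fell against iNSLCs, and the counts against iNSLCs are not read as a trait of NuRD. MTA3 rose 2.46-fold, GATAD2A 1.42-fold and MTA2 1.39-fold against iNSLCs, and CHD3 fell 2.33-fold. The SALL relatives of SALL4 were all higher in iPSCs than in fibroblasts. SALL1 was at 141, 141 and 187 CPM and SALL2 at 181, 158 and 208 CPM in iNSLCs and the clones, and neither was called there. SALL3 rose 2.33-fold (edgeR adjusted p = 0.0461).

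The POU relatives of POU5F1 did not rise with it at the last step. Of 9 tested, none was called higher against iNSLCs and 3 fell (DESeq2 gave the same counts). POU3F2, POU3F3 and POU4F1, factors of the nervous system, were at 9.32, 8.79 and 32.0 CPM in iNSLCs and fell 25.5-fold, 9.72-fold and 8.98-fold. POU2F1, a broadly expressed octamer-binding factor, was at 28.7 CPM in iNSLCs and 31.6 and 28.0 CPM in the clones. POU2F2, POU2F3 and POU3F1 reached at most 2.02 CPM in any library and were not called against iNSLCs. Of 10 SOX relatives of SOX2, 3 rose and 3 fell against iNSLCs (2 and 0 with DESeq2), beside 14.1% of all genes each way with edgeR. SOX17 was 76.4-fold higher and SOX3, the closest relative on the list beside SOX1, 2.52-fold lower.

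Of the 8 vector-carried genes that were measured, 3 rose against iNSLCs, all members, and GLIS1 (14.2-fold) and KLF2 (2.54-fold) fell (4 and 1 with DESeq2). KLF4, at 310, 54.4, 27.1 and 13.7 CPM, fell against fibroblasts and was not called against iNSLCs (edgeR adjusted p = 0.0568). Genes of other lineages that the core factors are known to restrain were present together with them. Of 11 tested, 10 rose against fibroblasts, and 9 rose and 2 fell against iNSLCs, with a median log2 ratio to iNSLCs of 3.35. The 2 that fell were CDX2 (7.46-fold) and GATA3 (3.09-fold). GATA4, EOMES and SOX17 were at 71.6 ± 16.8, 133 ± 33.5 and 16.0 ± 1.43 CPM in iPSCs (SD, n = 2), and MIXL1 at 4.15 ± 1.83 CPM. These are bulk values, and whether the same cells held them was not tested.

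**Figure D5:**
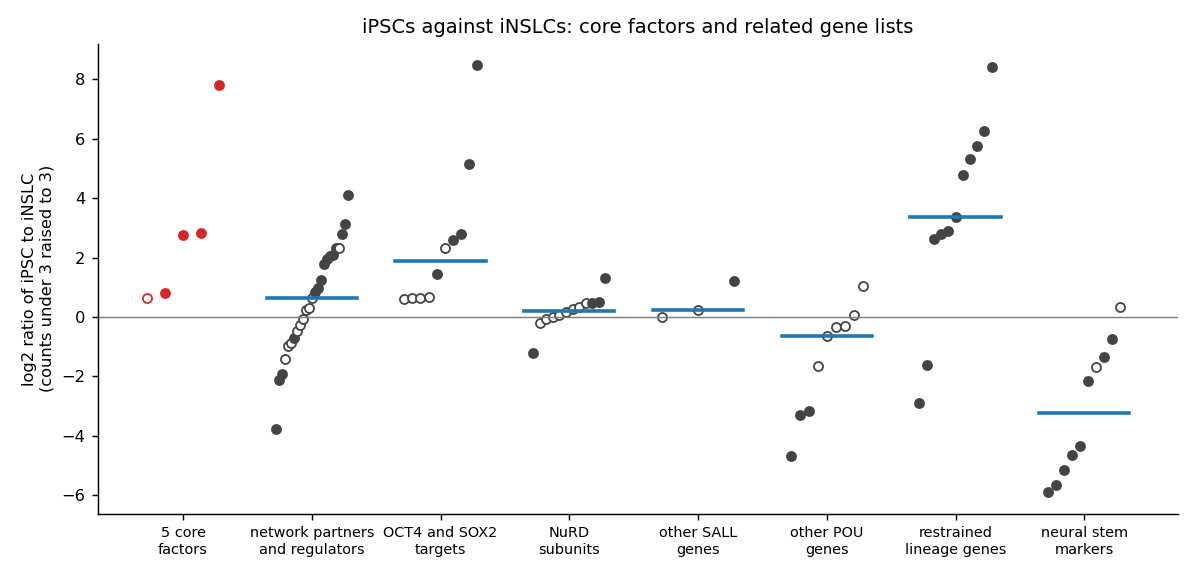
Log2 ratio of iPSCs (mean of the clones) to iNSLCs for the 5 members (red) and for the tested genes of 7 lists, with counts under 3 raised to 3; filled points passed the edgeR test and blue lines are list medians (0.65, 1.89, 0.22, 0.22, -0.62, 3.35 and -3.24 from left to right). The members lay from 0.62 to 7.80, and SALL4 is the open red point.

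Markers of other cell types were followed beside the members. Over all genes tested, 14.1% rose and 14.1% fell against iNSLCs, and 29.6% rose and 27.5% fell against fibroblasts. The marker counts were not tested against these shares, and the small ones are not read as a trait of their list. All 12 fibroblast markers were lower in iPSCs than in fibroblasts and 11 of 12 fell against iNSLCs. The largest falls were those of COL6A3 (578-fold), DCN (572-fold), FAP (241-fold, with its 2 counts in clone 2 raised to 3) and COL3A1 (115-fold). Of 10 neural stem markers, 8 fell and none rose against iNSLCs (7 with DESeq2). Among those that fell were NEUROG2 (59.5-fold, with its 1 and 2 clone counts raised to 3), HES5 (49.6-fold), DCX (35.0-fold) and FABP7 (4.43-fold). SOX2, which neural stem cells share, rose where none of these 10 did, and NES, at 384 CPM in iNSLCs and 461 and 505 CPM in the clones, was not called. PAX6 was not called either (edgeR adjusted p = 0.101). Its levels were 21.5 CPM in fibroblasts, 14.6 in iNSLCs, and 2.32 and 6.71 in the clones. Of 7 tested germ cell markers, 4 rose against fibroblasts and 1, SOX17, against iNSLCs. PRDM1, KIT and TFAP2C were at 17.1, 128 and 74.6 CPM in iNSLCs and were not called there, and DDX4 stayed at or under 0.733 CPM in every library. Of 8 trophoblast markers, 2 rose and 4 fell against iNSLCs, with EOMES 53.6-fold higher and TFAP2A (17.0-fold), CDX2 (7.46-fold) and GATA2 (7.13-fold) lower. Of 7 tested blood and endothelial markers, 2 rose (1 with DESeq2), among them CD34 (2.64-fold), and PECAM1 fell 5.95-fold against iNSLCs. CD34 was at 14.6 CPM in fibroblasts, 1.22 in iNSLCs, and 3.08 and 3.37 in the clones. CDH5 (1.05 CPM in iNSLCs, 3.97 and 9.22 in the clones) and CD14 were not called.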

How the data were processed

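RNA of 4 porcine libraries (fibroblasts, iNSLCs, 2 iPSC clones) was sequenced. The deposited values are raw counts per gene which, per the submitters' processing notes, the authors made with Trim Galore 0.4.0, STAR 2.5.3a and featureCounts 1.5.2 on Sscrofa11.1. For the strand setting, reads with several matches and the annotation release, the sources used here give nothing, and reads from overlapping genes or near-identical copies cannot be told apart. The 4 per-sample tables equalled the columns of the joint table. Of 25880 genes, 14857 were named by identifier and 1733 by position (at least 80% overlap with a RefSeq gene).

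Counts were scaled by TMM and tested over all 15739 genes kept by filterByExpr with edgeR 4.0.16 (R 4.3.3; quasi-likelihood F test, 3 groups, 1 residual degree of freedom, Benjamini-Hochberg, threshold 0.05), with DESeq2 1.42.0 as an alternative. The scripts were tested on simulated data. Where 1 library stood on each side, ratios carry exact conditional binomial intervals and no p-value. Counts under 3 were raised to 3 for bounds.

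The members and the gene lists, which come from textbook knowledge, were chosen with earlier results of these data known. The lists overlap, for example in SOX17, EOMES and CDX2, so their counts are not independent. From each list, up to 4 genes at 5 CPM or more with the largest ratio of iPSCs to iNSLCs were named, and SALL and POU relatives at 1 CPM or more. Genes named beyond this rule (such as FGF4, KLF2, KLF5, NES, PAX6, OTX2, POSTN, S100A4, DDX4 and the neighbours) were chosen after their values were seen. Of the lists, DPPA4, L1TD1, LEFTY1 and KDM4D matched no named row and were not analysed here.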

Additional observations from a re-analysis of the deposited data

How the results depend on the processing

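All 5 members were called higher than in fibroblasts under each of the 7 alternatives tested (RLE scaling, total counts, reference gene scaling, no filter on low counts, 1 CPM in 2 libraries, only the 2 groups compared, DESeq2), and POU5F1, NANOG, SOX2 and UTF1 were called higher than in iNSLCs under each of them, with the highest adjusted p at 0.0418 for SOX2. SALL4 against iNSLCs (log2 ratio 0.63 with edgeR) passed with RLE scaling (0.64, adjusted p = 0.0488), with only the 2 groups compared (0.61, adjusted p = 0.0458) and with DESeq2 (0.64, adjusted p = 0.0137), and the cause was not tested. The place of SOX2 in the order per length moved from 4 to 2 in iPSCs and from 3 to 1 in iNSLCs with its RefSeq length, by the construction of that alternative, and this alternative was not run for the other members, whose coding lengths were not used here. With reference gene scaling, the log2 ratio of clone 2 to clone 1 was -0.03 for POU5F1, 0.34 for SOX2 and 0.36 for SALL4, and the interval of POU5F1 no longer left out 1 (4 of 5 members in place of 5). Total counts moved the ratios of iPSCs to fibroblasts by 0.57 on the log2 scale and reference genes by 0.42, and reference genes moved the ratios to iNSLCs by -0.16. The counts of called genes stayed within 1.5 times of 8991 and 4427 under all alternatives, and 18 of the 25 genes with the most similar pattern were shared with a pseudocount of 1 CPM. Without either clone no residual degree of freedom was left, so these values, which are those of the other clone, carry no test and say nothing about stability. No paired analysis was possible because the fibroblast and iNSLC groups have 1 library each. The p-values rest on the spread between 2 clones of 1 animal, and the other libraries were assumed to vary like them.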
